A study of Mus musculus with 9 samples.

Results

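The 9 genes described here make, sense and remove lysophosphatidic acid (LPA): Enpp2, which encodes autotaxin, the receptor genes Lpar1, Lpar2, Lpar3, Lpar4 and Lpar6, and the phosphatase genes Plpp1, Plpp2 and Plpp3. They were picked by symbol from 35896 annotated genes. Enpp2 entered the set because it was undetected with LIF2i and high after withdrawal. Its levels in that contrast are therefore given as a description without a test. The other 8 genes belong to the same pathway. The set leaves out Lpar5 and Plpp4 to Plpp6 and was chosen with earlier results of these data known. All 9 passed the filter on low counts.

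The study asked what the Arp2/3 complex, which nucleates branched actin, does as embryonic stem cells of the mouse exit self-renewal. The 9 poly-A libraries came from cultures of a single mouse embryonic stem cell line, E14, grown on gelatin in medium with fetal bovine serum in every group. Control cells with LIF2i (n = 3) were kept in self-renewal medium with the cytokine LIF, 1 µM of the MEK inhibitor PD0325901 and 1 µM of the glycogen synthase kinase 3 beta inhibitor CHIR99021. Control cells without LIF2i (n = 3) had been withdrawn from all of these for 72 h, and CK666 cells (n = 3) had been withdrawn for 72 h with 80 µM CK666, a small-molecule Arp2/3 inhibitor. CK666 was diluted from DMSO, and the labels do not say that controls received the solvent, so drug and solvent cannot be told apart. The replicates carry the numbers 1 to 3 in each group and are described as paired.

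Autotaxin is a secreted lysophospholipase D that cleaves the choline from lysophosphatidylcholine and so makes LPA outside the cell. LPA acts through G protein-coupled receptors: LPA1 to LPA3 belong to the EDG family, which they share with the sphingosine 1-phosphate receptors, whereas LPA4 to LPA6 are closer to the purinergic P2Y receptors. Coupling to G12 and G13 leads through guanine exchange factors to actin and myosin. The phospholipid phosphatases are membrane enzymes that take the phosphate off extracellular LPA and end its signal. Serum itself carries lysophospholipids and autotaxin, so in this medium the transcripts do not measure the LPA that the cells met.

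Libraries held 16894327 to 22550952 estimated counts, and 3 counts, taken as the detection floor, came to 0.133 to 0.178 counts scaled to library size (CPM) before TMM scaling. Values below are CPM after TMM scaling, for comparing a gene between libraries, or TPM, the deposited abundances per transcript length, for comparing genes. The replicate 1 libraries stood apart, with 15637, 17231 and 17551 genes above 0 against 18080 to 18636 in replicates 2 and 3. Of 7 pluripotency markers, 6 fell after withdrawal, and their summed level went from 3480 to 4460 TPM with LIF2i to 1470 to 1860 TPM without and 1660 to 1910 TPM with CK666. Most of that sum in withdrawn cells was Pou5f1; Esrrb and Tfcp2l1 were higher with CK666 than in control by 1.26 and 1.37 on the log2 scale in 3 of 3 pairs, without overlap, and were not called (edgeR adjusted p 0.13 and 0.19). Fibroblast markers summed to 5.87 to 13.4 TPM with LIF2i, 24.0 to 31.1 TPM without and 15.2 to 23.7 TPM with CK666, and 3 of 4 (Thy1, Col1a2 and Col1a1) rose after withdrawal. The call held in 18 of 18 alternative analyses for Thy1, in 16 for Col1a2 and in 4 for Col1a1, with edgeR adjusted p of 0.051 and 0.39 for the latter pair without the replicate block, and Pdgfrb, not called, was lower in 3 of 3 pairs (log2 fold change -0.88, adjusted p 0.074). Neural markers summed to 15.8 to 23.7, 35.3 to 53.1 and 19.3 to 37.2 TPM in the same order, and of 3 markers Nes rose and Sox1 fell after withdrawal, the latter in 10 of 18 alternatives and with an edgeR adjusted p of 0.60 without the block. With CK666 against control, Nes fell (log2 fold change -1.24, edgeR adjusted p 0.031), a call that held in 9 of 18 alternatives, with an adjusted p of 0.27 without the block and 0.056 without replicate 1. Sox1 and Pax6 were higher by 1.27 and 1.47 on the log2 scale in 3 of 3 pairs and were not called. Trophoblast markers summed to 41.4 to 55.2 TPM with LIF2i, nearly all of it Tfap2c, and to at most 8.92 TPM after withdrawal. Tfap2c fell, while the trophoblast marker Krt7 rose (log2 fold change 2.32, edgeR adjusted p 0.034). The Krt7 call held in 7 of 18 alternatives, with an edgeR adjusted p of 0.14 without the block. Cdx2, too low to be tested, was higher in 3 of 3 pairs (0.501 ± 0.385 against 0.0405 ± 0.0701 CPM, SD, n = 3 each). Elf5 reached at most 0.261 CPM in any library. Mesoderm markers summed to at most 8.89 TPM. Of the 4, Mesp1 was listed at 0 in 7 of 9 libraries. Mixl1 rose after withdrawal from at most 0.105 CPM to 0.415 to 1.08 CPM (edgeR adjusted p 0.012, passed in 14 of 17 alternatives). Eomes, the largest part of the sum by group mean, was not called (log2 fold change 0.21, edgeR adjusted p 0.66). T, too low to be tested, was higher in 3 of 3 pairs (1.07 ± 1.37 against 0.0725 ± 0.0791 CPM, SD, n = 3 each), with overlap.

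**Figure D1:**
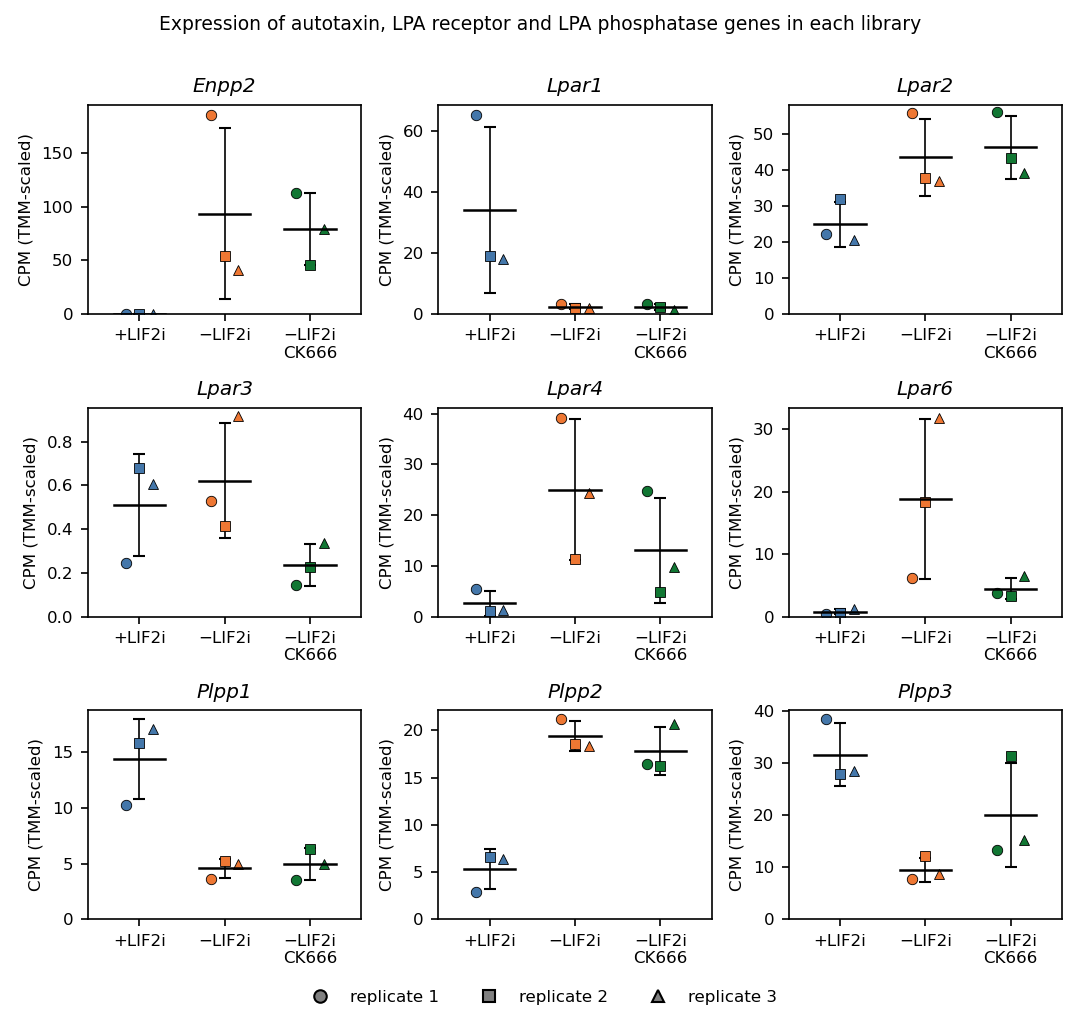
Level of each gene, as TMM-scaled CPM, in controls with LIF2i, in controls withdrawn for 72 h and in CK666 cells withdrawn for 72 h. Symbols are single libraries by replicate number, horizontal lines are means and bars are SD (n = 3); Enpp2 lies at 0 in every library with LIF2i, and Lpar1 drops from 17.9 or more to 3.32 or less after withdrawal.

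Enpp2 (ENSMUSG00000022425, GRCm38 chr15:54838901-54952892, minus strand) had no counts in any of the 3 libraries with LIF2i. In replicate order it reached 186, 53.7 and 41.1 CPM in controls without LIF2i, and 113, 45.3 and 78.9 CPM with CK666. The withdrawn libraries all lay far above the floor, and replicate 1 was the highest in both withdrawn groups. Set against a floor of 3 counts in the same-numbered library with LIF2i, which came to 0.147, 0.157 and 0.182 CPM after TMM scaling, the control levels were at least 1260, 343 and 226-fold higher, and the CK666 levels at least 768, 289 and 433-fold higher. These values belong to the contrast by which the gene was picked. Bulk RNA gives the total over all cells of a culture, so fewer expressing cells and less RNA per cell cannot be told apart for this or any other gene here.

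Enpp2 was highest in the replicate 1 control without LIF2i. That library also had the highest sums of fibroblast (31.1 TPM), neural (53.1 TPM) and primitive endoderm markers (30.4 TPM). Among controls without LIF2i its pluripotency sum (1860 TPM) was the highest and its trophoblast sum (3.33 TPM) the lowest. Its mesoderm sum (7.06 TPM) was neither. The primitive endoderm sum ranged over 9.58 to 30.4 TPM in controls without LIF2i, 11.9 to 23.2 TPM with CK666 and 4.79 to 9.08 TPM with LIF2i. By group mean Dab2 led it in both withdrawn groups. With LIF2i Gata4 (3.35 TPM) stood above Dab2 (2.41 TPM). Of these 6 markers 1, Dab2, rose after withdrawal. The part of the marker lists in the Enpp2 values was not tested. About 5.97% of the exonic bases of Enpp2 lie opposite Gm26684, a gene annotated on the other strand, which was not analysed here.

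Autotaxin is made in several splice forms, which differ in a pair of cassette exons. The long form called alpha carries an exon for a basic stretch that binds heparin, the gamma form carries another exon further downstream and is best known from brain, and the widespread beta form has neither. Both exons are printed because the transcripts found in these cells are told apart by them. Capitals mark the exon and lower case the 15 flanking bases on each side in the spliced transcript, 5′ to 3′, from GENCODE M21 transcripts. The first is exon 12 of 26 in transcript Enpp2-204 (GRCm38 chr15:54877776-54877931, minus strand, 156 bases) and is shared with Enpp2-203, and the other is exon 20 of 26 in Enpp2-202 (chr15:54851348-54851422, minus strand, 75 bases). Both lengths are whole multiples of a codon.
Enpp2 exon 12 of Enpp2-204: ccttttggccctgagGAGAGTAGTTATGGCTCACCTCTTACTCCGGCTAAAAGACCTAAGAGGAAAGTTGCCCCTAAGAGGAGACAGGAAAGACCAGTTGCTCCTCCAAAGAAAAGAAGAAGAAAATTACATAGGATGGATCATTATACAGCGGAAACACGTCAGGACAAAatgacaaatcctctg
Enpp2 exon 20 of Enpp2-202: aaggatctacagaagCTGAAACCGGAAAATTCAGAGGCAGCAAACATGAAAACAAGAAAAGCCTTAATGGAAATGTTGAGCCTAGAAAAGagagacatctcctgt

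Most Enpp2 RNA was assigned to Enpp2-201, which has neither exon. In replicate order its share of the gene's TPM was 73.1%, 69.9% and 78.1% in controls without LIF2i and 74.9%, 73.0% and 76.7% with CK666. The groups overlapped, with means of 73.7% ± 4.13 and 74.9% ± 1.85 (SD, n = 3 each). Enpp2-204, which carries exon 12, held 19.6%, 18.7% and 15.4% in controls and 15.4%, 11.5% and 13.8% with CK666. It was lower with CK666 in 3 of 3 pairs, at 13.6% ± 1.96 against 17.9% ± 2.21 (SD, n = 3 each), and the groups met at 15.4%. Short transcripts enter the same total on few counts. Enpp2-208, of 728 bases, held 6.62% in control replicate 2 (12.2 counts). In CK666 replicates 2 and 3 it held 11.1% and 7.86% (16.6 and 20.2 counts), which lowers the share left to Enpp2-204. No test was run on transcripts, because the error of dividing reads between overlapping transcripts is not in the files. Enpp2-202, with exon 20, had 9.47 counts in 1 library, control replicate 2, and was listed at 0 in the others, and Enpp2-203 was listed at 0 in all 9 libraries.

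**Figure D2:**
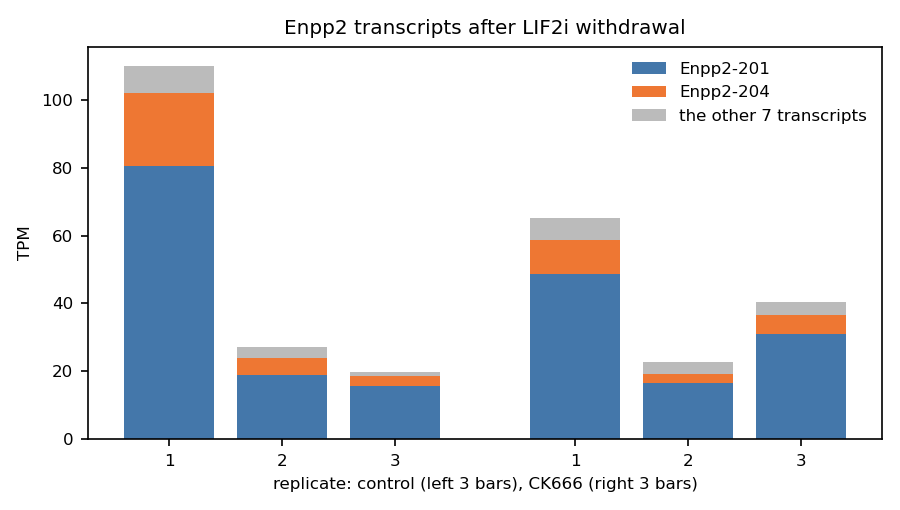
Enpp2 TPM in each library after withdrawal, split by annotated transcript, with controls on the left and CK666 on the right (bars are single libraries). Enpp2-201, which lacks both alternative exons, makes up 69.9% to 78.1% of every bar, whatever its height.

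CK666 against control, both without LIF2i, is the comparison of Enpp2 that played no part in picking it. Levels were 93.5 ± 80.1 CPM in controls and 79.1 ± 33.9 CPM with CK666 (SD, n = 3 each), and the groups overlapped. The log2 differences of the pairs were -0.71, -0.25 and 0.94, so 2 pairs were lower and 1 was higher with CK666. The fitted log2 fold change was -0.02 (SE 0.31, 95% interval -0.77 to 0.73, edgeR adjusted p 0.98), and a change in either direction within that interval was not detectable with these libraries.

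**Figure D3:**
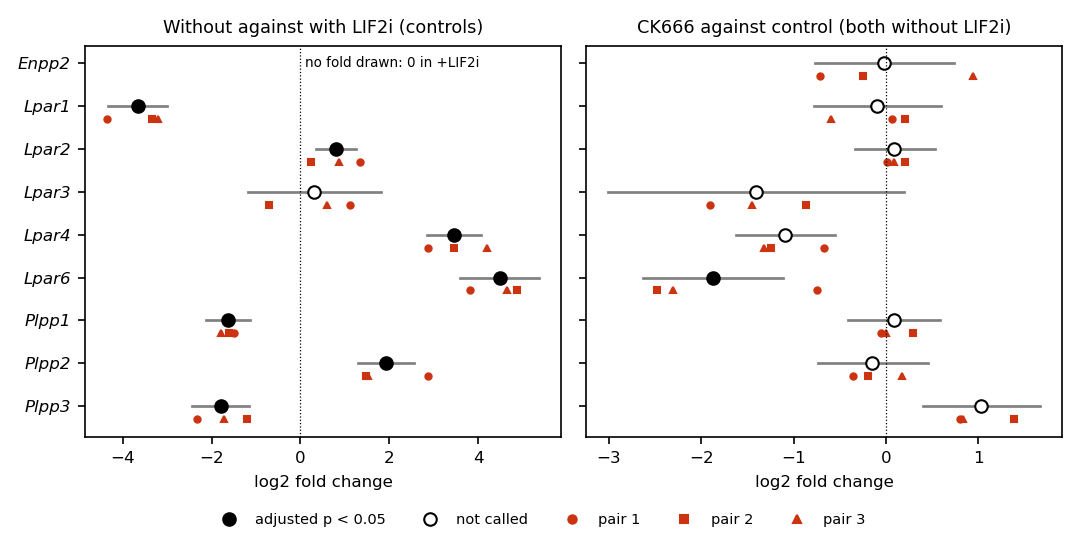
Fitted log2 fold changes (large circles, filled where the edgeR adjusted p is under 0.05) with 95% intervals (grey) and the log2 differences of the 3 same-numbered pairs (small red symbols), for withdrawal in controls on the left and for CK666 against control on the right. Enpp2 is left out on the left because its level with LIF2i is 0; on the right Lpar6 is the filled gene, and its 3 pairs differ by -0.75, -2.48 and -2.31.

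After withdrawal in controls, 7 of the 8 genes other than Enpp2 changed at an edgeR adjusted p under 0.05, 4 upward and 3 downward. Over all 14648 genes tested 40.7% were called, 21.1% higher and 19.7% lower. The median log2 fold change was 0.55 over these 8 genes and 0.01 over all genes. The receptor and phosphatase genes did not move as one: each family held members that rose and members that fell. Without the replicate 1 libraries 7 of the 8 were called.

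Lpar1 (ENSMUSG00000038668, GRCm38 chr4:58435255-58553898, minus strand), the most widely expressed EDG-type LPA receptor, fell. It stood at 65.5, 19.0 and 17.9 CPM with LIF2i, at 3.18, 1.87 and 1.94 CPM without, and at 3.32, 2.15 and 1.28 CPM with CK666. Every library with LIF2i lay above every withdrawn library, with replicate 1 by far the highest. Withdrawal gave -3.67 on the log2 scale (SE 0.30, edgeR adjusted p 2.5e-05, lower in 3 of 3 pairs). CK666 against control gave -0.10 (SE 0.31, 95% interval -0.78 to 0.59, edgeR adjusted p 0.90).

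Lpar4 (ENSMUSG00000049929, GRCm38 chrX:106920625-106933900, plus strand), a P2Y-type receptor, rose after withdrawal. Its levels were 5.36, 1.05 and 1.34 CPM with LIF2i, 39.2, 11.4 and 24.4 CPM without, and 24.7, 4.81 and 9.77 CPM with CK666. The withdrawn controls all lay above the libraries with LIF2i, and each CK666 library lay between its same-numbered partners. Against LIF2i the controls differed by 3.45 on the log2 scale (SE 0.27, edgeR adjusted p 2.1e-05, higher in 3 of 3 pairs).

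Lpar6 (ENSMUSG00000033446, GRCm38 chr14:73237895-73243294, plus strand) encodes another P2Y-type receptor, which couples to G12 and G13 and is known for its role in hair growth. It stood at 0.442, 0.627 and 1.28 CPM with LIF2i, at 6.22, 18.4 and 31.9 CPM without, and at 3.70, 3.28 and 6.42 CPM with CK666. Both withdrawn groups lay wholly above the libraries with LIF2i. The fitted withdrawal change was 4.49 on the log2 scale (SE 0.40, edgeR adjusted p 4e-05, higher in 3 of 3 pairs). The gene lies within Rb1, on the other strand, and 7.56% of its exonic bases are shared with it. Whether counting used strand is not stated, so reads on the shared bases could belong to either gene. Rb1 itself stood at 16.3 ± 2.38 CPM with LIF2i and 25.0 ± 6.15 CPM without (SD, n = 3 each), higher by 0.61 on the log2 scale (SE 0.19) in 3 of 3 pairs, with an edgeR adjusted p of 0.026; the call held in 11 of 18 alternatives, with an adjusted p of 0.10 without the block.

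Lpar2 (ENSMUSG00000031861, GRCm38 chr8:69822429-69831102, plus strand), an EDG-type receptor, rose by less than Lpar4 and Lpar6. It stood at 22.3, 32.0 and 20.4 CPM with LIF2i, at 56.0, 37.7 and 37.0 CPM without, and at 56.3, 43.5 and 39.3 CPM with CK666. The withdrawn libraries lay above those with LIF2i, though control replicate 2 rose by only 0.24 on the log2 scale. The log2 fold change for withdrawal was 0.79 (SE 0.20, edgeR adjusted p 0.011, higher in 3 of 3 pairs). Leaving out LIF2i replicate 3 gave 0.76 and leaving out control replicate 1 gave 0.67, both with an edgeR adjusted p of 0.051, and leaving out all 3 replicate 3 libraries gave 0.76 with an edgeR adjusted p of 0.10. CK666 against control gave 0.09 (SE 0.19, 95% interval -0.34 to 0.53, edgeR adjusted p 0.84).

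Lpar3 (ENSMUSG00000036832, GRCm38 chr3:146220963-146286186, plus strand), the third EDG-type receptor, was barely detected. It had 5, 13 and 10 counts with LIF2i, 11, 8 and 17 without, and 3, 4 and 6 with CK666. All 3 CK666 libraries lay below the controls without LIF2i, 1 of them at the floor of 3 counts, and they overlapped the libraries with LIF2i. The log2 fold change was 0.31 for withdrawal (SE 0.67, 95% interval -1.19 to 1.81, edgeR adjusted p 0.75) and -1.41 for CK666 against control (SE 0.71, 95% interval -3.01 to 0.19, edgeR adjusted p 0.31), too wide at this depth to tell a change.

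Among the phosphatases, Plpp2 rose while Plpp1 and Plpp3 fell. Plpp2 (ENSMUSG00000052151, GRCm38 chr10:79526430-79533796, minus strand) stood at 2.90, 6.64 and 6.38 CPM with LIF2i, at 21.2, 18.6 and 18.4 CPM without, and at 16.5, 16.2 and 20.7 CPM with CK666. All 6 withdrawn libraries lay above the 3 with LIF2i. The log2 fold change for withdrawal was 1.92 (SE 0.28, edgeR adjusted p 0.00068, higher in 3 of 3 pairs), and CK666 against control gave -0.15 (SE 0.26, 95% interval -0.74 to 0.45, edgeR adjusted p 0.81).

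Plpp1 (ENSMUSG00000021759, GRCm38 chr13:112800792-112867894, plus strand) stood at 10.3, 15.8 and 17.1 CPM with LIF2i, at 3.62, 5.19 and 4.97 CPM without, and at 3.51, 6.34 and 4.97 CPM with CK666. Every library with LIF2i lay above every withdrawn one. On the log2 scale the controls fell by 1.63 (SE 0.22, edgeR adjusted p 0.00041, lower in 3 of 3 pairs), and CK666 against control gave 0.09 (SE 0.22, 95% interval -0.41 to 0.58, edgeR adjusted p 0.87). Of its exonic bases 25.8% are shared with Mtrex, an RNA helicase gene on the other strand. Mtrex stood far higher, at 166 ± 51.4 CPM with LIF2i and 203 ± 44.3 CPM without (SD, n = 3 each), and its value for withdrawal had the other sign (0.32 on the log2 scale, SE 0.12, edgeR adjusted p 0.063).

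Plpp1 transcripts differ in their second exon, of which each takes 1 of 2 alternatives, and counts were assigned to both transcripts. Plpp1-201 uses GRCm38 chr13:112834859-112835013 (155 bases) and Plpp1-202 uses chr13:112851403-112851554 (152 bases), both on the plus strand. Aligned with each other, they share 101 identical bases, 65.2% of the longer exon. They are printed with the exon in capitals between 15 bases of the neighbouring exons, which are the same in both.
Plpp1 exon 2 of Plpp1-201: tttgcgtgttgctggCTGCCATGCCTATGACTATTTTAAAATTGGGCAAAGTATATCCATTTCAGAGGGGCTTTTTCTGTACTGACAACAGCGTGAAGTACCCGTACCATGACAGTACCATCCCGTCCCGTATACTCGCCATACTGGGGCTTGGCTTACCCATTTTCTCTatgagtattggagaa
Plpp1 exon 2 of Plpp1-202: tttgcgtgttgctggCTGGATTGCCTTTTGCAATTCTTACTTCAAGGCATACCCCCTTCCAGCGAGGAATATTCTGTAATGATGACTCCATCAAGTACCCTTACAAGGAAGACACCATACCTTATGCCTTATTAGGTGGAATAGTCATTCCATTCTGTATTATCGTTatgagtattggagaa

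Plpp1-201 was the more abundant of the transcripts in 8 of 9 libraries. Its share of the gene's TPM was 42.8%, 79.4% and 79.6% with LIF2i, 52.2%, 52.3% and 60.9% without, and 57.1%, 72.6% and 56.5% with CK666. The exception was replicate 1 with LIF2i, and the groups overlapped. The transcripts also differ in length (1598 against 1272 bases), so these shares describe whole transcripts and not reads on exon 2. Reads on the bases shared with Mtrex may also enter them, since strand use is not stated. Plpp1-201 went from 6.36, 11.6 and 13.5 TPM with LIF2i to 2.55, 2.99 and 3.25 TPM after withdrawal. Plpp1-202 went from 8.48, 3.01 and 3.46 TPM to 2.33, 2.73 and 2.09 TPM, so that its difference was large in replicate 1 and small in replicate 2. No transcript was tested.

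Plpp3 (ENSMUSG00000028517, GRCm38 chr4:105157347-105232764, plus strand), a phosphatase needed for mouse embryos to develop, stood at 38.6, 28.0 and 28.5 CPM with LIF2i, at 7.67, 12.1 and 8.64 CPM without, and at 13.3, 31.5 and 15.3 CPM with CK666. The withdrawn controls were the lowest 3 libraries, and CK666 replicate 2 reached the range with LIF2i. On the log2 scale withdrawal gave -1.80 (SE 0.29, edgeR adjusted p 0.0011, lower in 3 of 3 pairs).

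With CK666 against control, 1 of the 9 genes was called, Lpar6, against 2.05% of all genes tested (1.15% higher and 0.894% lower). The edgeR fit without the replicate block called 0 members and 0 genes in all, with 2 members (Lpar6 and Plpp3) and 1251 genes at an unadjusted p under 0.05, and DESeq2 with the block called 3 members and 1136 genes. Without the replicate 1 libraries 3 members were called, Lpar4, Lpar6 and Plpp3, and the count over all genes went from 300 to 1811. The median change was -0.12 on the log2 scale over the 8 genes other than Enpp2 and 0.02 over all genes.

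Lpar6 fell with CK666, from 18.8 ± 12.8 to 4.47 ± 1.71 CPM (SD, n = 3 each). It was lower in 3 of 3 pairs, with log2 differences of -0.75, -2.48 and -2.31, and the groups touched, since the lowest control (6.22 CPM, replicate 1) lay below the highest CK666 library (6.42 CPM, replicate 3). The fitted log2 fold change was -1.87 (SE 0.34, 95% interval -2.63 to -1.11, edgeR adjusted p 0.033). Without the block it was -2.07 (edgeR adjusted p 0.35). The call was lost when 1 library was left out at a time in 5 cases, with edgeR adjusted p of 0.057 without LIF2i replicate 3, 0.17 and 0.23 without control replicates 2 and 3, and 0.22 and 0.15 without CK666 replicates 2 and 3. Rb1 stood at 33.6 ± 6.36 CPM with CK666 against 25.0 ± 6.15 CPM (SD, n = 3 each; log2 fold change 0.44, SE 0.18, edgeR adjusted p 0.22). With CK666 against control, the neural marker sums were 19.3 to 37.2 against 35.3 to 53.1 TPM and the fibroblast sums 15.2 to 23.7 against 24.0 to 31.1 TPM; of the neural markers Nes was lower and Sox1 and Pax6 were higher in 3 of 3 pairs. Mesoderm sums were 1.74 to 4.33 against 3.64 to 8.89 TPM, with Eomes lower, and Esrrb, Tfcp2l1 and Tfap2c were higher, each in 3 of 3 pairs. Of the primitive endoderm markers, Pdgfra and Gata4 were higher (log2 fold change 1.14 and 0.95) and Sox7 lower (-0.38) in 3 of 3 pairs, none called. Cdx2 was lower in 3 of 3 pairs and T in 2 of 3, both too low to be tested. The part of these markers in this result was not tested.

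Lpar4 and Plpp3 came close to the threshold. Lpar4 differed by -1.09 on the log2 scale (SE 0.24, 95% interval -1.62 to -0.55, edgeR adjusted p 0.052), with pairs at -0.67, -1.25 and -1.32. Its groups overlapped because replicate 1 was high in both. Plpp3 differed by 1.03 (SE 0.28, 95% interval 0.40 to 1.67, edgeR adjusted p 0.088), with pairs at 0.80, 1.38 and 0.83. All 3 CK666 libraries lay above all 3 controls for Plpp3, and below them for Lpar3, a separation that 16.5% of all genes tested showed in either direction. When LIF2i replicate 1 was left out, which is in neither group but enters the shared estimate of spread, both passed (edgeR adjusted p 0.0089 for Lpar4 and 0.014 for Plpp3).

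CK666 cells were also set against control cells with LIF2i. This comparison uses the same libraries with LIF2i as the withdrawal comparison and is given beside it, not as a repeat. It called 6 of the 8 genes other than Enpp2, 4 higher and 2 lower, and 36.9% of all genes tested (19.8% higher and 17.1% lower). The log2 fold change was 2.61 for Lpar6 (SE 0.39, edgeR adjusted p 0.00086) beside 4.49 for withdrawal in controls, and 2.37 for Lpar4 (SE 0.26, edgeR adjusted p 0.00017, but 0.062 without the block) beside 3.45. It was -0.77 for Plpp3 (SE 0.28, edgeR adjusted p 0.057), beside -1.80. Plpp3 passed when LIF2i replicate 2 was left out (-1.13, edgeR adjusted p 0.0080) or CK666 replicate 2 (-1.10, edgeR adjusted p 0.020). The remaining genes had values near those of the controls: -3.77 for Lpar1 (SE 0.30, edgeR adjusted p 3e-05), 0.89 for Lpar2 (SE 0.20, edgeR adjusted p 0.0072), -1.55 for Plpp1 (SE 0.22, edgeR adjusted p 0.00063) and 1.78 for Plpp2 (SE 0.28, edgeR adjusted p 0.0012). Lpar3, at -1.10 (SE 0.72), missed the threshold with an edgeR adjusted p of 0.26. Over all genes tested, 37.3% did not overlap between CK666 libraries and those with LIF2i, and among the members Lpar3, Lpar4 and Plpp3 overlapped.

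Levels of different genes were compared in TPM. With LIF2i the leading genes were Lpar1 (23.7 ± 25.4 TPM), Plpp1 (15.5 ± 1.32 TPM) and Plpp3 (15.3 ± 5.89 TPM; SD, n = 3 each), whose ranges overlapped. Lpar2 (6.04 ± 1.19 TPM) and Plpp2 (5.17 ± 1.29 TPM) followed, below the ranges of those 3 and overlapping each other. Lpar4 (0.989 ± 1.08 TPM), Lpar3 (0.299 ± 0.0987 TPM) and Lpar6 (0.200 ± 0.0994 TPM) came last among the genes detected, each overlapping the next in order. The Lpar1 mean rests on replicate 1 (53.0 TPM, of which 16.6 TPM came from 51.1 counts on a 514-base fragment, Lpar1-208).

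After withdrawal the order was another one. Enpp2 (52.3 ± 50.1 TPM) led and overlapped Plpp2 (21.6 ± 6.31 TPM), and after a gap came Lpar2 (11.1 ± 4.06 TPM), Lpar4 (9.11 ± 5.98 TPM), Plpp1 (5.31 ± 0.420 TPM), Lpar6 (4.90 ± 3.15 TPM), Plpp3 (4.50 ± 0.791 TPM) and Lpar1 (2.36 ± 1.85 TPM), each overlapping the next in order. Lpar3 was below them all, at 0.390 ± 0.151 TPM (SD, n = 3 each). With CK666, Enpp2 (42.7 ± 21.4 TPM) stood clear of Plpp2 (17.5 ± 2.66 TPM), and Plpp3 (9.25 ± 3.95 TPM) stood in the group with Plpp2 and Lpar2 (11.5 ± 3.13 TPM), above Plpp1 (5.46 ± 1.01 TPM). Lpar4 (4.71 ± 4.07 TPM), Lpar1 (1.93 ± 1.12 TPM) and Lpar6 (1.19 ± 0.445 TPM) followed, each overlapping the gene before it, and Lpar3 was last again, at 0.143 ± 0.0544 TPM (SD, n = 3 each).

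**Figure D4:**
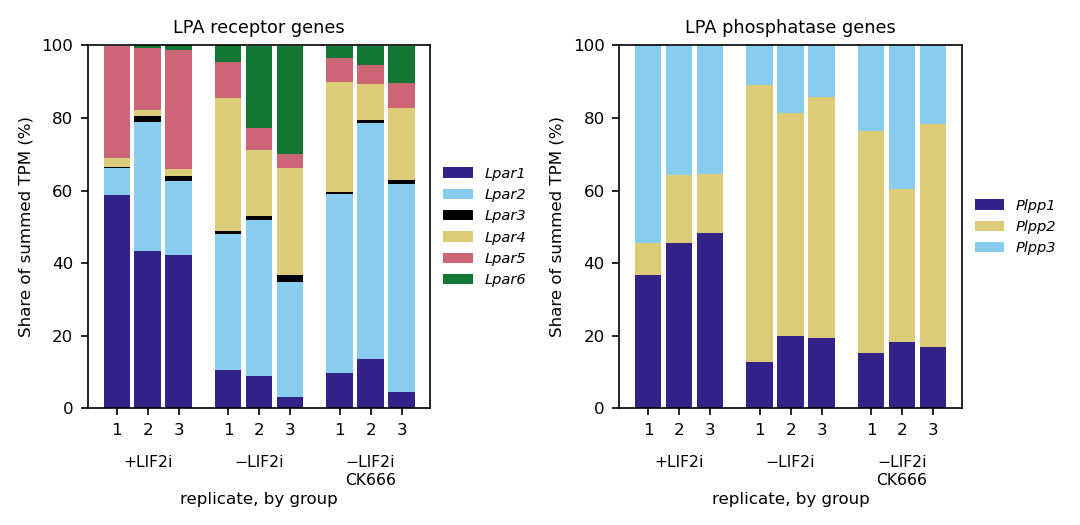
Share of each receptor gene (left) and phosphatase gene (right) in the summed TPM of the genes drawn in every library, by group and replicate. Lpar1 holds 42.3% to 58.9% of the receptor sum with LIF2i and 13.7% or less after withdrawal, while Plpp2 goes from 18.8% or less to 42.2% or more of the phosphatase sum.

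The make-up of both families is shown by shares of the summed TPM, counting Lpar5, a P2Y-type receptor outside the set, among the receptors. With LIF2i the receptor sum was mostly Lpar1 (48.2% ± 9.28), Lpar5 (26.8% ± 8.57) and Lpar2 (21.0% ± 14.0). In controls without LIF2i it was mostly Lpar2 (37.4% ± 5.55), Lpar4 (28.1% ± 9.36) and Lpar6 (18.9% ± 13.0). With CK666 Lpar2 held 57.2% ± 7.65, Lpar4 20.1% ± 10.3 and Lpar6 6.33% ± 3.46 (SD, n = 3 each). The Lpar2 share with CK666 (49.5% to 64.8%) lay above that in controls (31.8% to 42.9%), although the Lpar2 level overlapped between them. The receptor sum itself overlapped between all groups, at 19.2 to 90.0 TPM with LIF2i, 20.4 to 42.2 TPM without and 15.4 to 30.5 TPM with CK666.

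The phosphatase sum counts Plpp1, Plpp2 and Plpp3 only. It ranged over 27.6 to 40.6 TPM in the 9 libraries, and the groups overlapped. Outside it, Plpp5 stood at 16.8 ± 8.47, 11.0 ± 0.100 and 9.29 ± 3.51 TPM with LIF2i, without it and with CK666, Plpp6 at 3.00 ± 0.756, 2.27 ± 0.493 and 2.42 ± 0.404 TPM (SD, n = 3 each), and Plpp4 at no more than 0.934 TPM, so shares of a wider family would be lower. The make-up of the sum of 3 differed between libraries with and without LIF2i: Plpp2 held 14.8% ± 5.08 with LIF2i, 68.0% ± 7.52 without and 54.9% ± 11.0 with CK666. Plpp3 held 41.8% ± 10.9, 14.7% ± 3.92 and 28.2% ± 9.81, and Plpp1 43.5% ± 6.09, 17.4% ± 3.96 and 16.8% ± 1.61 (SD, n = 3 each). Shares within a library are tied to each other and were not tested.

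Of 49 other genes around LPA, 42 were tested, and 7 rose and 9 fell after withdrawal, beside 21.1% higher and 19.7% lower over all genes tested. The median log2 fold change was 0.05. Lpar5 fell with Lpar1, from 15.3, 2.67 and 6.38 CPM with LIF2i to 2.12, 1.09 and 0.971 CPM without and 1.47, 0.736 and 0.559 CPM with CK666. Its 3 libraries with LIF2i lay above all withdrawn ones, and the withdrawal value was -2.35 on the log2 scale (SE 0.41, edgeR adjusted p 0.0019, lower in 3 of 3 pairs). Of 6 genes for other LPA-making enzymes 5 were tested, and Liph, a phosphatidic acid lipase, fell (log2 fold change -0.97, SE 0.22), while Gpat4, which starts glycerolipid synthesis, rose (0.36, SE 0.11). Of 9 genes for enzymes that use up LPA 8 were tested, and Acp6, a mitochondrial LPA phosphatase, fell (-1.28, SE 0.19), as did the acyltransferase gene Agpat3 (-0.38, SE 0.13). These 4 had edgeR adjusted p of 0.0071, 0.029, 0.00073 and 0.036 in the order named, but without the block those of Liph (0.48), Gpat4 (0.21) and Agpat3 (0.096) missed the threshold. Over 18 alternatives Acp6 passed in 18, Liph in 16, Gpat4 in 9 and Agpat3 in 4.

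Genes of the G proteins downstream of LPA receptors moved in both directions after withdrawal. Gna13, for a G protein subunit that LPA receptors use to reach actin, went from 187 ± 21.3 to 84.7 ± 8.64 CPM (SD, n = 3 each; log2 fold change -1.14, SE 0.13, edgeR adjusted p 0.00014, and 0.0013 without the block). Arhgef12, for a guanine exchange factor driven by it, fell as well (-0.56, SE 0.13, edgeR adjusted p 0.0077, and 0.025 without the block). Gna11 fell (-0.33, SE 0.12, edgeR adjusted p 0.047, and 0.13 without the block) but passed in only 2 of 18 alternatives. The inhibitory subunits Gnai1 (0.75, SE 0.16, edgeR adjusted p 0.0048) and Gnai3 (0.45, SE 0.11, edgeR adjusted p 0.0085) rose, with 0.28 and 0.070 without the block.

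Among relatives of the members, the nucleotide-cleaving Enpp1 (1.77, SE 0.45) and Enpp3 (1.59, SE 0.50) rose and Enpp4 (-1.33, SE 0.27) fell after withdrawal, 3 of 4 tested of 6 ENPP genes beside 40.7% of all genes tested, with edgeR adjusted p of 0.012, 0.036 and 0.0042. The sphingosine 1-phosphate receptor gene S1pr3 rose (2.04, SE 0.46, edgeR adjusted p 0.0069), 1 of 6 tested genes of that pathway against the same 40.7%. Plppr4, a relative of the phosphatases, was called as well (3.72, SE 1.27, edgeR adjusted p 0.041) from levels of at most 1.13 CPM. Plppr4 passed in only 8 of 17 alternatives (edgeR adjusted p 0.11 without replicate 1) and Enpp3 in 10 of 18. With CK666 against control, 1 of the 42 genes was called, beside 2.05% of all genes tested: Agpat1, which acylates LPA to phosphatidic acid, rose from 67.6, 49.7 and 53.4 to 106, 72.5 and 85.7 CPM. The log2 difference was 0.63 (SE 0.11, edgeR adjusted p 0.032, higher in 3 of 3 pairs), with an adjusted p of 0.47 without the block and a pass in 8 of 18 alternatives. Gna13 was at 123 ± 12.6 CPM with CK666 (SD, n = 3; log2 fold change 0.55 against control, edgeR adjusted p 0.057).

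Genes with a pattern most like that of Enpp2 were ranked by Pearson's r of log2(CPM + 1) over the 9 libraries, among 14159 protein-coding genes. Of the 5 highest, 4 are reported here: Adamts19, a secreted protease gene (r = 0.993), Irs4, an adaptor of insulin signalling (0.993), Pxdn, an extracellular matrix peroxidase gene (0.993), and Cep170b (0.992). Irs4 was near 0 with LIF2i too, at 0.246, 0.261 and 0.364 CPM, and stood at 26.4, 11.5 and 14.3 CPM without and 19.6, 7.93 and 15.4 CPM with CK666. Cep170b shares the shape and not the size, at 36.0 to 40.2 CPM with LIF2i and 108 to 150 CPM in the withdrawn libraries. With the means of the replicate numbers removed, the 5 highest were Pdlim2, Arap3, Asb13, Vwa2 and Flywch1 (r = 0.998 to 0.999). So many genes differ between libraries with and without LIF2i that 320 genes reached r of 0.95 in the first measure and 921 in the other, and the libraries share these groups and replicate numbers.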

How the data were processed

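For each library the authors deposited, per the file headers, a transcript table with estimated counts (not normalized), TPM and effective length. The submitters' processing notes name kallisto, sleuth, cutadapt 1.8.1 and FastQC, with the builds mm10 and GRCh38; their roles, the transcript release and the strand setting are not given in the sources used here. Of 119414 transcripts, 97.7% were matched by Ensembl identifier to GENCODE M21 (GRCm38). Estimated counts were summed per gene and rounded; the deposited TPM were summed per gene. All 9 libraries entered one edgeR 4.0.16 fit (R 4.3.3; TMM, expression filter, robust quasi-likelihood test) with the replicate number as block; calls were made at 0.05 after Benjamini-Hochberg adjustment over 14648 genes. SE came from the test statistic. The design text calls the replicates paired; same-numbered libraries of different groups deviated together (median r 0.51, 0.39 to 0.75 over 9 pairs). Replicates are called biological by the submitters and differed by more than counting noise; if they were repeat preparations, p-values would measure technical spread. Floors cover counting error only.

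The members, lists and rules were chosen with earlier results of these data known. Every member is named, and of the pathway list the called genes; some results that these rules would name are not reported here. Alternatives were a fit without the block, DESeq2's size factors, DESeq2 1.42.0, no filter, effective length offsets, only the compared groups, and leaving out libraries. Protein sequences were not used here.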

Additional observations from a re-analysis of the deposited data

How the results depend on the processing

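Each result had 18 alternatives (17 for Lpar3 in both comparisons with the CK666 libraries, where it was not tested with only the 2 groups compared). Of the single-gene values, 422 stayed on the same side of the threshold, 13 lost a call, 13 gained one and 0 called values changed sign. The 422 include uncalled values that changed sign, such as those of Enpp2 and Lpar1 (-0.39 to 0.13) for CK666 against control. The 7 members called after withdrawal were 6 to 7 when replicates were left out, and the 6 called for CK666 against LIF2i were 5 to 7 over all alternatives. The 1 member called for CK666 against control became 0 without the replicate block, 2 without the expression filter, 3 with DESeq2, 3 with only the 2 groups compared, and 0 to 3 when replicates were left out. Lpar6 passed in 10 of 18 alternatives (log2 fold change -2.41 to -1.58), Lpar4 in 5 (-1.36 to -0.86) and Plpp3 in 4 (0.66 to 1.25), and the Enpp2 value for CK666 against control passed in 0 of 18 (-0.48 to 0.33, adjusted p 0.35 to 1). The cause was not tested. The block changed no call of a member other than Lpar6 for CK666 against control and Lpar4 for CK666 against LIF2i.

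Over all genes, the 5967 calls for withdrawal became 3509 without the block and 3099 to 6588 when replicates were left out. The 5408 for CK666 against LIF2i became 2966 without the block and 2413 to 6129. The 300 for CK666 against control became 0 without the block, 565 without the filter, 1136 with DESeq2, 147 with length offsets, 1367 with only the 2 groups compared, and 0 to 1811 when replicates were left out. Depth limits Lpar3 most, at 3 to 17 counts in each library.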
